A study of Mus musculus with 12 samples.

Results

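Genes of lipid synthesis, lipid storage and fatty acid oxidation were measured in RAW264.7, a macrophage-like cell line of the mouse, kept for 24 h in 1 of 4 media. The set held 38 genes chosen by function, and a gene's value was that of its probe set with the highest mean. Of the 38, 35 had a probe set assigned to that gene alone, out of 30464 genes named on the array; the probe sets of Acsl3, Etfb and Ppard were also assigned to a second gene and were not used. A gene was tested if it lay above the median of all probe sets on at least 3 arrays, which 33 of the 35 did, within 18119 genes tested; Mgll and Pparg did not. The groups had 3 arrays each. They were normal medium (RPMI with 10% FBS; replicates 2, 3 and 4), the conditioned medium of PyMT-41C tumour cells labelled SCR (SCR medium; replicates 1, 3 and 4), that of JMJD6-KO PyMT-41C cells (KO medium; replicates 1, 2 and 3) and SCR medium with CSH, given in the labels as a block of the ANXA-1 receptor (CSH medium; replicates 1, 2 and 4). Each conditioned medium was diluted to 50% with normal medium. The knockout was in the cells that made the medium, not in the cells measured. The labels name neither a CSH group in normal medium nor a vehicle group, and nothing says that replicates were separate cultures, so the p-values rest on a spread between arrays that may be technical.

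Cells build fatty acids from acetyl-CoA, which ATP citrate lyase (Acly) and acetyl-CoA synthetase (Acss2) supply and which acetyl-CoA carboxylase (Acaca) and fatty acid synthase (Fasn) convert into palmitate. Fatty acids are joined to CoA by acyl-CoA synthetases, assembled stepwise onto glycerol and stored as triglyceride in lipid droplets, or carried into mitochondria by the carnitine shuttle, whose first enzyme is Cpt1a, and burned by beta-oxidation. In macrophages, lipid droplets build up during inflammatory activation and in foam cells, and fatty acid oxidation is tied to the alternatively activated state.

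Signals are RMA values in log2 units, so that a difference of 1 is a 2-fold change. Differences were tested with limma over all 12 arrays, and a gene was called changed at a Benjamini-Hochberg adjusted p below 0.05 over the 18119 genes. Array medians ran from 5.40 to 5.52. The macrophage markers Lyz2, Cd68, Spi1 and Fcgr3 were well above these medians in every group (9.09 or higher). In conditioned media Csf1r was lower (13.70 in normal and 11.90 in SCR medium), as was Adgre1 (11.24 and 9.79), while Itgam (14.03 and 15.00) and Cd14 (12.83 and 13.44) were higher. Mertk, the remaining marker of 10 besides Ptprc (12.37 and 11.86), lay at 5.02 to 5.16. The summed level of the 10 ran from 124.23 to 124.92 in normal, 121.54 to 122.88 in SCR, 122.12 to 123.25 in KO and 121.29 to 123.86 in CSH medium; their part in the results below was not tested. All 11 markers of mammary epithelium, the cell type that conditioned the media, lay between 4.28 and 5.74, at about the array median, and their sums were 55.69 to 55.89, 55.51 to 56.56, 55.96 to 56.17 and 55.92 to 56.22 in the same order. Of 6 fibroblast markers, 3 were measured and none passed the filter (3.99 to 5.46). In such bulk RNA fewer cells of a kind and less RNA per cell cannot be told apart.

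Promoter windows from RefSeq (GRCm38.p6, the assembly behind mm10), running from 250 bases before to 50 bases after a transcript start, were found for 34 of the 38 genes (not for Dgat1, Dgat2, Acaa2 and Ppargc1b), 42 windows in all. They were searched on both strands for the core of the hypoxia element (ACGTG), the single nuclear receptor site (AAGGTCA), the element bound by SREBP (TCACNCCAC), the direct repeat DR1 bound by PPAR (which can contain the single site) and the cAMP element (TGACGTCA). The hypoxia core was present in 12 of the 42 windows (28.6%) and in 19.62% of all 32851 windows; the 12 windows belong to 10 genes, and the median GC content was 61.8% in the 42 windows and 52.7% in all. The windows compared were not matched on GC content. The single receptor site was present in 2 (4.8%, against 4.72%). None of the 42 held the SREBP element, the PPAR repeat or the cAMP element, which 1.24%, 0.04% and 1.79% of all windows held. With rates this low, their absence from 42 windows says little. Other spellings of these elements and bases outside the windows were not searched. The windows below are printed 5′ to 3′ because their genes carry the results below. Capitals mark motif matches, except in the last, where they mark the 228 bases that the windows of Hadha and Hadhb share. These 2 genes encode the subunits of the mitochondrial trifunctional protein and lie head to head on chromosome 5, with transcript starts at 30154980 and 30155253, 273 bases apart.
Hilpda, chr6:29272376-29272675, plus strand: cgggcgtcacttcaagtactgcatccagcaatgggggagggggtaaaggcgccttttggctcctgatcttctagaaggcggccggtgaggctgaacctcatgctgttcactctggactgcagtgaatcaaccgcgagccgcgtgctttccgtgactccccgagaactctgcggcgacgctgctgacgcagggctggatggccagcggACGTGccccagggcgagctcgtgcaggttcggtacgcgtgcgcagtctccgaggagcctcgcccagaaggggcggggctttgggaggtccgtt
Plin2, chr4:86670010-86670309, minus strand: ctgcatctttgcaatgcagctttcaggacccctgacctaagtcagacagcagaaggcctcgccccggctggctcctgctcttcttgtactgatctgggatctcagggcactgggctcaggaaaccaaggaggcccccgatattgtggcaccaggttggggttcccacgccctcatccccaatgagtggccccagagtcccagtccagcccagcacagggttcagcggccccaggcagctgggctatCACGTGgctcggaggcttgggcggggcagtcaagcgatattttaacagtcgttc
Abhd5, chr9:122351366-122351665, plus strand: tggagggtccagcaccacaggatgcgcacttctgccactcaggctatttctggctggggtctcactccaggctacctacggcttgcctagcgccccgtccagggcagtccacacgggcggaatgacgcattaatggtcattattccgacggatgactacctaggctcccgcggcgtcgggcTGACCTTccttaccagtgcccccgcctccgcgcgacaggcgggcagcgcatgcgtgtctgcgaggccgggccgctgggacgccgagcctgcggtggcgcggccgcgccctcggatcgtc
Cpt1a, chr19:3323051-3323350, plus strand: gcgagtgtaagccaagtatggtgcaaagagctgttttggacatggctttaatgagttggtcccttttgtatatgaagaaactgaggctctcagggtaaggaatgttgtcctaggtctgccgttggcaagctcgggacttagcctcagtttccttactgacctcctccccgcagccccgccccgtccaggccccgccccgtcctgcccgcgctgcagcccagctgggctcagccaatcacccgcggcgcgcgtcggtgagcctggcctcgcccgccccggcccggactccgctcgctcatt
Hadhb, chr5:30155003-30155302, plus strand: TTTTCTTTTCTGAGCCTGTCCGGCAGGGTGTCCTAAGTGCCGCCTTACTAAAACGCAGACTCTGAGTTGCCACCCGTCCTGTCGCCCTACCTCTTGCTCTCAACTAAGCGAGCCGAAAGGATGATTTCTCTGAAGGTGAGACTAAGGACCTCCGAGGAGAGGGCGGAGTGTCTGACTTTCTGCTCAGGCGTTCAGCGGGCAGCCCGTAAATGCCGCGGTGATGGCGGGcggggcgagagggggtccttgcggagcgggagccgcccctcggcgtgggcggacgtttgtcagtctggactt
The Hilpda match began 43 bases before a transcript start at 29272626, which lies inside the gene as annotated; the window of its other start, 29272488, held no match. The Plin2 and Cpt1a windows also belong to starts inside the annotated gene. In Plin2 the core was read on both strands of CACGTG, 4 bases before the start, and in Abhd5 the single receptor site stood in reverse (TGACCTT), 69 bases before it. The Cpt1a window held no match. A match is a run of letters and not a measured binding site.

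The first comparison asked how the cells differed in SCR medium from normal medium. Among the 33 genes, 8 of 13 of the carnitine shuttle and beta-oxidation and 3 of 4 of new fatty acid synthesis were lower. Glycerolipid assembly was mixed, with 2 of 7 higher and 2 lower. Droplet and lipolysis genes were mixed too, with 3 of 6 higher and 2 lower. The oxidation count is that of the chosen genes: of 27 further oxidation genes tested, 7 rose and 7 fell. Cpt1a fell 2.76-fold and Acss2 2.13-fold, whereas Hilpda, an inhibitor of triglyceride breakdown, rose 2.63-fold and Acsl4, which activates arachidonic acid, 2.44-fold. Of the 33 genes tested, 6 rose, 17 fell and 10 did not pass. The share called was 69.7%, where 35.2% of all genes tested were called. The lipid genes were not matched to all genes on signal level, here or below. With a filter 1 log2 unit above the array median, 6154 of 13457 genes were called, a larger share than 35.2%. Under this filter 23 lipid genes were called, and Dgat2 was not tested. By direction, 18.2% of the 33 rose and 51.5% fell, against 19.3% and 15.8% of all genes. The median log2 change was -0.21, against 0.02 over all genes. For 23 of the 33, also 69.7%, no array of one medium overlapped the range of the other, against 43.3% of all genes. The genes were chosen with earlier results of these data known, so these counts are a description.

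**Figure D1:**
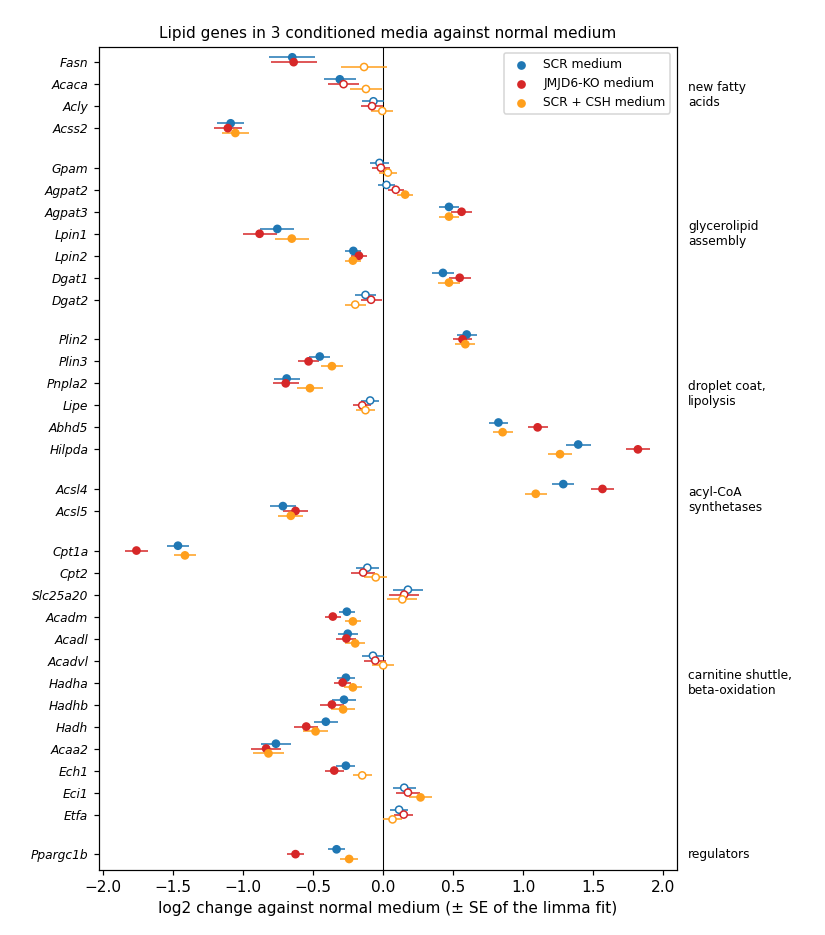
Log2 change of the 33 tested lipid genes in SCR (blue), JMJD6-KO (red) and CSH-treated SCR medium (orange) against normal medium, with the SE of the limma fit as bars, grouped by role. Filled points passed adjusted p below 0.05; the 3 comparisons share the normal medium arrays. Hilpda and Acsl4 lie farthest to the right and Cpt1a farthest to the left.

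Among the 4 genes that make new fatty acids, 3 fell and none rose in SCR medium. Acss2, which makes acetyl-CoA from acetate (chromosome 2, 155518043 to 155562743), read 7.67, 7.24 and 7.47 in normal medium and 6.32, 6.36 and 6.43 in SCR medium. It stayed at 6.29, 6.47 and 6.29 in KO medium and 6.39, 6.52 and 6.30 in CSH medium. No array in a conditioned medium reached the lowest array in normal medium. The change in SCR medium was -1.09 (SE 0.10, limma adjusted p = 3.01e-06), with -1.11 in KO and -1.06 in CSH medium.

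Fasn (chromosome 11, 120805958 to 120825166) read 13.40, 12.87 and 13.29 in normal medium, 12.58, 12.41 and 12.62 in SCR medium and 12.61, 12.62 and 12.41 in KO medium. In CSH medium it was spread over 13.03, 13.42 and 12.70, so those arrays overlapped the normal ones and lay above every SCR array. Fasn fell by 0.65 in SCR medium (SE 0.16, limma adjusted p = 0.00745) and by 0.64 in KO medium (adjusted p = 0.00714). In CSH medium the difference from normal medium was -0.14 (adjusted p = 0.57). The enzyme of the step before, Acaca, differed by -0.31 in SCR medium (adjusted p = 0.0487). This call rested on the choices made: it was lost with no filter (adjusted p = 0.082), median centring (0.0715), array weights (0.0568) or the 6 arrays alone (0.059), and on leaving out 1 of 8 arrays (normal replicates 2 and 4, all 3 SCR arrays, KO replicates 1 and 2 and CSH replicate 1; 0.0534 to 0.196). In KO (-0.28, adjusted p = 0.0643) and CSH medium (-0.12, adjusted p = 0.447) Acaca did not pass. Its KO difference was called with a stricter filter (0.0492), quantile normalization (0.0385) or the replicate number as a block (0.00788). It was also called without normal replicate 3 (0.0215) or CSH replicate 2 (0.0479). Acly lay within 0.08 of normal medium in all 3 conditioned media. The spread within groups was shared by some of these genes. The array lowest for Fasn was also lowest for Acaca and Acly in each group: normal replicate 3, SCR replicate 3, KO replicate 3 and CSH replicate 4. For Acly in normal medium the margin was small (9.67 against 9.68). Acss2 did not follow in SCR medium, where replicate 1 was lowest (6.32).

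In glycerolipid assembly, 2 of 7 genes rose, 2 fell and 3 did not pass. Agpat3, which adds the second fatty acid to the glycerol backbone, read 8.27, 8.38 and 8.39 in normal medium and 8.93, 8.75 and 8.77 in SCR medium, a rise of 0.47 (SE 0.07, limma adjusted p = 0.000234). Dgat1, which adds the last fatty acid and completes triglyceride, read 8.71, 8.91 and 8.81 and then 9.36, 9.13 and 9.22, a rise of 0.43 (SE 0.08, adjusted p = 0.000872). Neither gene's arrays overlapped between these media. Agpat3 differed from normal medium by 0.56 in KO and 0.47 in CSH medium, and Dgat1 by 0.55 and 0.47.

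The step between these enzymes is the phosphatidate phosphatase, which lipins provide. Lpin1, also a coactivator of oxidation genes, read 9.03, 8.64 and 8.52 in normal medium and 8.03, 7.86 and 8.03 in SCR medium, a fall of 0.76 on the log2 scale (SE 0.12, limma adjusted p = 0.000328). The fall was 0.88 in KO and 0.65 in CSH medium. Lpin2 differed by -0.21 in SCR medium (adjusted p = 0.0101), -0.17 in KO and -0.22 in CSH medium. The KO call of Lpin2 was lost without normal replicate 2 or 3 or any 1 KO array (adjusted p from 0.0551 to 0.0906) and under median centring (0.101). Dgat2, the other triglyceride synthase, lay at 5.51 to 5.71 in group means, close to the array medians, and did not pass in any medium; its difference in CSH medium (-0.20, adjusted p = 0.054) passed with quantile normalization (0.0326), median centring (0.0357) or array weights (0.0343), and without normal replicate 4 (0.0347), SCR replicate 3 (0.0458) or CSH replicate 1 (0.041). Gpam, the mitochondrial enzyme of the first step, was within 0.03 of normal medium in all 3. Agpat2 was called in CSH medium only (0.16, adjusted p = 0.0496). That call was lost with no filter (0.0729), median centring (0.202), the replicate number as a block (0.0995) or its 6 arrays alone (0.0673). Leaving out any 1 of 10 arrays also ended it, the exceptions being SCR replicates 1 and 3 (adjusted p from 0.0568 to 0.149). The Agpat2 difference between CSH and SCR medium did not pass (0.13, adjusted p = 0.781).

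Of the genes of the lipid droplet coat and of lipolysis, 3 rose, 2 fell and 1 of 6 tested did not pass. Hilpda (chromosome 6, 29272488 to 29275449), whose protein binds and inhibits the lipase encoded by Pnpla2, read 13.28, 13.35 and 12.99 in normal medium, 14.57, 14.50 and 14.73 in SCR medium, 14.99, 15.06 and 15.03 in KO medium and 14.45, 14.40 and 14.56 in CSH medium. Every conditioned array was more than 1 unit above every normal array, and the KO arrays were the highest. The rise was 1.39 in SCR (SE 0.09, limma adjusted p = 2.07e-07), 1.82 in KO and 1.26 in CSH medium.

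Abhd5, which encodes CGI-58, the activator of the same lipase, read 10.11, 10.28 and 10.10 in normal, 11.08, 10.90 and 10.98 in SCR, 11.27, 11.27 and 11.26 in KO and 11.09, 10.92 and 11.04 in CSH medium. Its rise was 0.82 in SCR (SE 0.07, limma adjusted p = 2.08e-06), 1.10 in KO and 0.85 in CSH medium. The lipase gene itself, Pnpla2, which encodes ATGL, read 10.08, 10.04 and 9.94 in normal and 9.45, 9.17 and 9.37 in SCR medium, with no overlap. It fell by 0.69 in SCR (SE 0.09, adjusted p = 7.9e-05), by 0.70 in KO and by 0.52 in CSH medium. The gene of the lipase was thus lower while those of its inhibitor and its activator were higher.

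Plin2, the droplet coat protein of most cells, read 16.31, 16.56 and 16.31 in normal and 17.08, 16.87 and 17.02 in SCR medium. No array in SCR medium overlapped one in normal medium. Plin2 rose by 0.60 in SCR (SE 0.07, limma adjusted p = 3.11e-05), 0.57 in KO and 0.59 in CSH medium. Plin3, a coat protein that also resides in the cytosol, moved the other way, by -0.45 in SCR (adjusted p = 0.000459), -0.53 in KO and -0.37 in CSH medium. The hormone-sensitive lipase gene Lipe did not pass in any medium (-0.09 in SCR, adjusted p = 0.31), although its KO arrays all lay below the normal ones (-0.15, adjusted p = 0.0879). With the replicate number as a block, the KO difference of Lipe was called (-0.19, limma adjusted p = 0.0392). Mgll, the monoglyceride lipase gene, lay at 4.58 to 4.69 on all 12 arrays, below the array medians.

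By the probe sets used, the measured acyl-CoA synthetases moved in opposite directions. Acsl4, which prefers arachidonic acid (chromosome X, 142317993 to 142390802), read 12.02, 11.91 and 11.77 in normal, 13.26, 13.09 and 13.21 in SCR, 13.34, 13.53 and 13.53 in KO and 13.08, 12.95 and 12.94 in CSH medium. The rise was 1.29 in SCR (SE 0.08, limma adjusted p = 1.71e-07), 1.57 in KO and 1.09 in CSH medium. Acsl5, found at mitochondria and endoplasmic reticulum, read 12.83, 12.82 and 12.80 in normal and 12.15, 12.12 and 12.03 in SCR medium, a fall of 0.72 (SE 0.09, adjusted p = 4.74e-05), with falls of 0.63 in KO and 0.66 in CSH medium. A second, dimmer probe set of Acsl5 (mean 7.32 against 12.32) gave -0.09, -0.15 and 0.03 in these media. Its change was smaller in SCR and KO medium and of opposite sign in CSH medium, so the fall called for Acsl5 rests on 1 probe set.

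**Figure D2:**
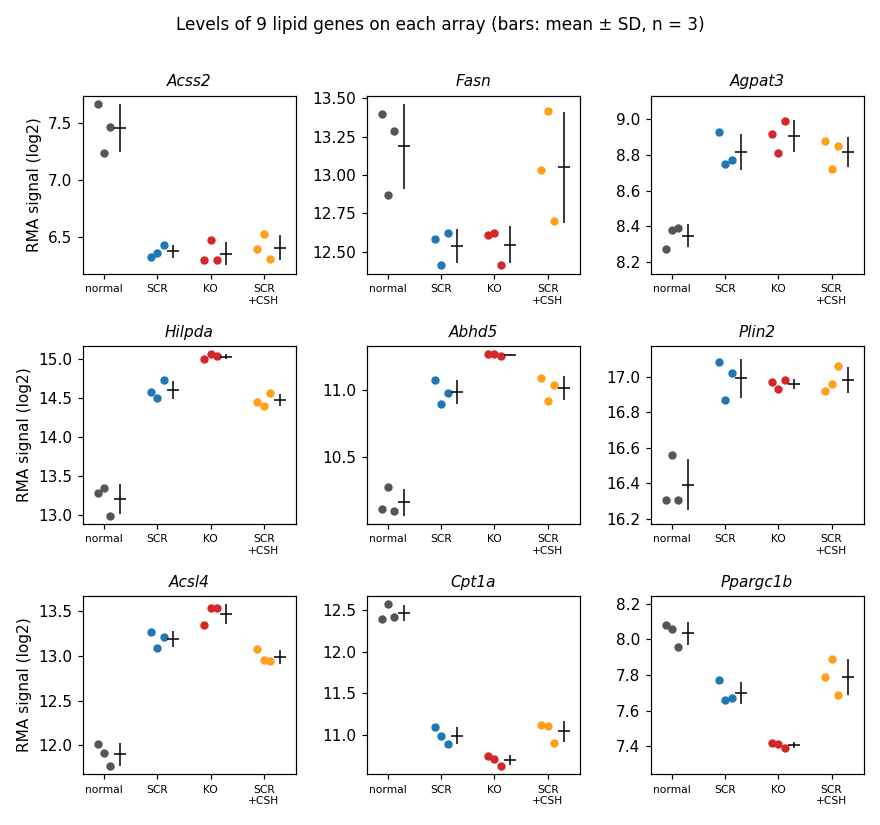
RMA signal on the log2 scale of 9 lipid genes on each of the 12 arrays (points), with the mean ± SD of each group of 3 beside them; each panel has its own vertical range. Acss2 and Cpt1a are lower, and Agpat3, Hilpda, Abhd5, Plin2 and Acsl4 higher, in every conditioned medium than in normal medium, while the CSH arrays of Fasn overlap the normal ones.

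In the carnitine shuttle and beta-oxidation, 8 of 13 genes fell, none rose and 5 did not pass in SCR medium. Cpt1a, the gate of fatty acid entry into mitochondria (chromosome 19, 3322326 to 3385735), read 12.39, 12.57 and 12.42 in normal, 11.10, 10.99 and 10.89 in SCR, 10.75, 10.71 and 10.63 in KO and 11.12, 11.11 and 10.90 in CSH medium. Every conditioned array lay more than 1 unit below every normal array. The change was -1.47 in SCR (SE 0.08, limma adjusted p = 7.16e-08), -1.76 in KO and -1.42 in CSH medium. The later steps of the shuttle did not follow it: Slc25a20, the carnitine carrier, differed by 0.18 (adjusted p = 0.24) and Cpt2, which reforms acyl-CoA inside, by -0.11 (adjusted p = 0.345).

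Of the acyl-CoA dehydrogenases that open each cycle, the medium-chain gene Acadm read 9.95, 9.92 and 9.89 in normal and 9.75, 9.59 and 9.64 in SCR medium, a change of -0.26 (SE 0.06, limma adjusted p = 0.00361). The long-chain gene Acadl changed by -0.25 (adjusted p = 0.0134), a call lost without normal replicate 3 (0.0595) or SCR replicate 4 (0.065). The very-long-chain gene Acadvl did not pass (-0.07, adjusted p = 0.539). Hadha, the alpha subunit of the trifunctional protein, changed by -0.27 (adjusted p = 0.00448) and Hadhb, the beta subunit on the other side of the shared window printed above, by -0.28 (adjusted p = 0.0228). The Hadhb call did not survive the loss of replicate 2 or 3 of normal medium, nor of SCR replicate 3 or 4 (adjusted p from 0.0632 to 0.0877). In KO medium this pair changed by -0.29 and -0.37 and in CSH medium by -0.22 and -0.29; the CSH calls were lost without normal replicate 2 for both (0.0641 and 0.0579) and without normal replicate 3 or CSH replicate 2 for Hadhb (0.0784 and 0.0881).

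The end of the cycle held a larger fall. Acaa2, the mitochondrial thiolase, read 10.54, 10.42 and 10.26 in normal, 9.89, 9.54 and 9.49 in SCR, 9.62, 9.58 and 9.51 in KO and 9.74, 9.46 and 9.56 in CSH medium, a change of -0.77 in SCR (SE 0.11, limma adjusted p = 0.000124), -0.84 in KO and -0.82 in CSH medium. Hadh, the dehydrogenase for shorter chains, changed by -0.41 (adjusted p = 0.00233), -0.55 and -0.48 in the same order. Auxiliary enzymes for unsaturated fatty acids were mixed: Ech1 changed by -0.27 in SCR (adjusted p = 0.00728) and -0.35 in KO medium and differed by -0.15 in CSH medium (adjusted p = 0.105), while Eci1 differed by 0.15 in SCR (adjusted p = 0.198) and was called higher in CSH medium (0.27, adjusted p = 0.0244). That Eci1 call was lost without normal replicate 4 or CSH replicate 1 or 2 (adjusted p from 0.0595 to 0.105) and under median centring (0.0714). Ech1 in CSH medium was called only with the replicate number as a block (limma adjusted p = 0.0301). Etfa, which passes electrons to the respiratory chain, did not pass (0.11, adjusted p = 0.227). Acadl in CSH medium (-0.20, adjusted p = 0.0429) also depended on the arrays used: leaving out any of 8 ended its call, namely normal replicates 2 and 3 and every KO and CSH array (adjusted p from 0.0514 to 0.157), as did no filter (0.0645), median centring (0.071) and its 6 arrays alone (0.0715).

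**Figure D3:**
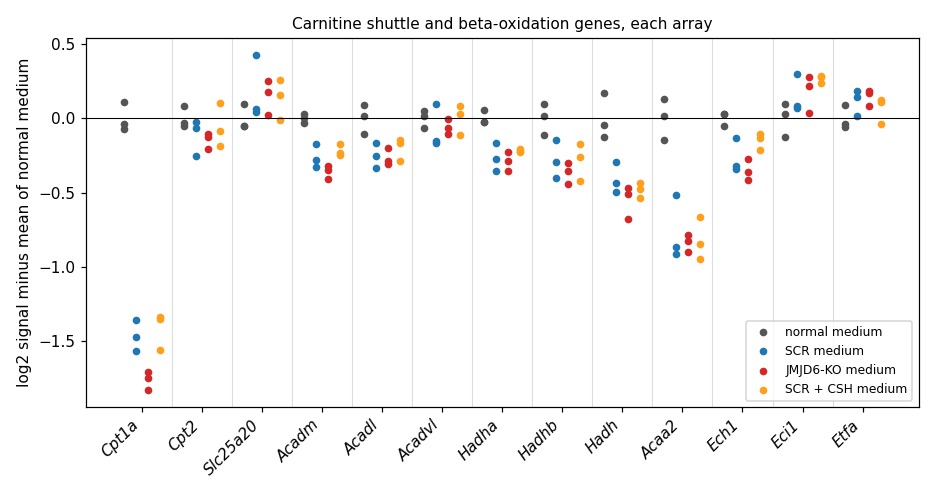
Log2 signal of 13 genes of the carnitine shuttle and beta-oxidation on each array, as the difference from the mean of the normal medium arrays, by medium. Cpt1a and Acaa2 are displaced most; Cpt2, Slc25a20, Acadvl, Eci1 and Etfa passed no test in SCR medium.

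Of the regulators, Ppargc1b, which encodes PGC-1 beta, a coactivator of mitochondrial and oxidative genes, read 8.08, 8.06 and 7.96 in normal, 7.77, 7.66 and 7.67 in SCR, 7.42, 7.41 and 7.39 in KO and 7.79, 7.89 and 7.69 in CSH medium. The fall was 0.33 in SCR (SE 0.06, limma adjusted p = 0.000979), 0.63 in KO and 0.24 in CSH medium. The KO arrays were the lowest and lay close together. Pparg, the nuclear receptor known for lipid storage in macrophages and fat cells, lay at 4.61 to 4.82 on every array, below the array medians, and was not tested.

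Against normal medium, KO medium changed 22 of the 33 genes, 6 up and 16 down (66.7%, where 39.1% of all genes were called, 21.4% up and 17.6% down). CSH medium changed 22, 8 up and 14 down (66.7%, against 35.8%, 20.9% up and 14.9% down). The median change was -0.17 in KO and -0.14 in CSH medium, against 0.01 and 0.03 over all genes. At least 2-fold changes were found for 4 genes in SCR medium (Cpt1a, Hilpda, Acsl4 and Acss2), for these and Abhd5 in KO medium, and for the same 4 as in SCR medium in CSH medium; over all genes 3.07%, 4.07% and 2.81% were called with such a change. These comparisons share the normal medium arrays, so their values are set side by side and no overlap is drawn from them.

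The comparison of KO with SCR medium addresses JMJD6 in the tumour cells that produced the medium. None of the 33 genes was called by limma, where 0.27% of all genes were. At an unadjusted p below 0.05 there were 5 (15.2%, against 5.95% of all genes): Hilpda, Ppargc1b, Abhd5, Cpt1a and Acsl4. For these 5 the arrays of the media did not overlap, also 15.2% of the 33 against 9.37% of all genes. Hilpda was higher in KO medium by 0.43 (95% interval 0.24 to 0.62, adjusted p = 0.0951) and Ppargc1b lower by 0.29 (difference -0.29, interval -0.43 to -0.16, adjusted p = 0.106). Abhd5 differed by 0.28 (0.13 to 0.43, adjusted p = 0.228), Cpt1a by -0.30 (-0.47 to -0.12, adjusted p = 0.29) and Acsl4 by 0.28 (0.11 to 0.45, adjusted p = 0.346).

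In each of these 5 genes the KO value lay farther from normal medium than the SCR value, by the per-array levels given above. They were picked by their KO minus SCR difference, so this is a description. Over all genes the median size of the change from normal medium was 0.153 in KO and 0.14 in SCR medium. Hilpda passed without normal replicate 4 (adjusted p = 0.0268), and with array weights Hilpda (0.0332), Abhd5 (0.0167) and Ppargc1b (0.0127) passed, in a fit where SCR replicate 4 took a weight of 6.14 and the weights did not fully converge. The other 28 genes differed by -0.14 to 0.12. Fasn and Acss2, for example, stood at 0.01 (interval -0.35 to 0.37) and -0.02 (-0.23 to 0.19). Over all 33 genes no interval reached beyond 0.62 in size, so a 2-fold difference lay outside every interval.

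The addition of CSH to SCR medium addresses the annexin A1 receptor. This comparison shares the SCR arrays with the one before, and both share arrays with the next. None of the 33 genes passed in limma, and of all genes 0% did; 3 had an unadjusted p below 0.05 (9.09%, against 6.24% of all genes), and the same 3 had arrays that did not overlap (9.09%, against 8.59%). Fasn was 0.51 higher with CSH (interval 0.16 to 0.87, adjusted p = 0.712), so the fall of Fasn called in SCR and not in CSH medium is not shown to differ between them. Acsl4 differed by -0.20 (-0.37 to -0.02, adjusted p = 0.77) and Agpat2 by 0.13 (0.01 to 0.26). Each of the alternatives run, array weights and single arrays left out among them, also gave 0 calls. Hilpda (-0.13), Cpt1a (0.05), Abhd5 (0.03) and Plin2 (-0.01) differed from SCR medium by less than their intervals, which reached from -0.32 to 0.06 for Hilpda and from -0.12 to 0.22 for Cpt1a.

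**Figure D4:**
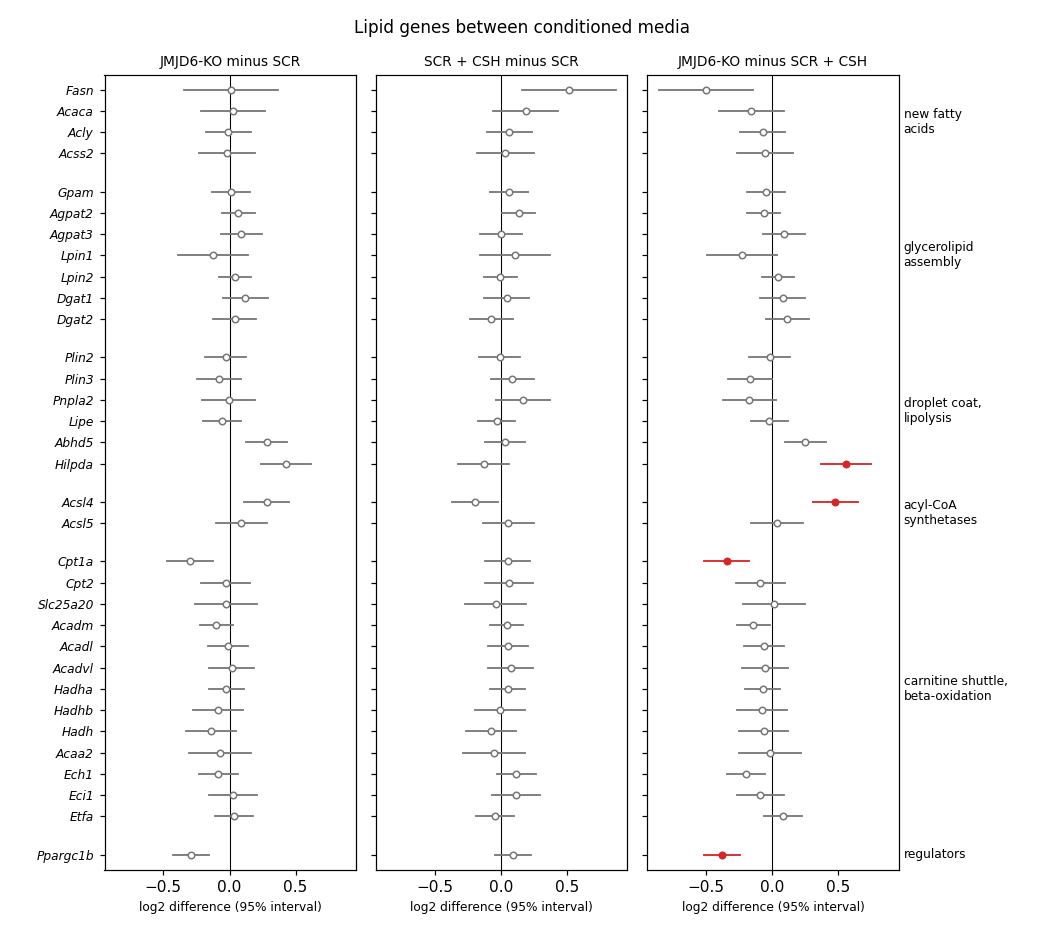
Log2 differences of the 33 tested lipid genes between conditioned media, with 95% intervals of the limma fit; red filled points passed adjusted p below 0.05. The genes Hilpda, Acsl4, Cpt1a and Ppargc1b passed, all between JMJD6-KO medium and CSH-treated SCR medium.

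KO and CSH medium differed from each other in 4 of the 33 genes, 2 higher and 2 lower in KO medium (12.1%, where 1.9% of all genes were called, 1.21% higher and 0.695% lower). Hilpda was higher by 0.56 (SE 0.09, limma adjusted p = 0.00874), with KO arrays at 14.99 to 15.06 and CSH arrays at 14.40 to 14.56. Acsl4 was higher by 0.48 (SE 0.08, adjusted p = 0.0111). Ppargc1b was lower, at -0.38 (SE 0.06, adjusted p = 0.00958), and Cpt1a lower, at -0.35 (SE 0.08, adjusted p = 0.0478). In all 4 the arrays of the media did not overlap, as in 9 of the 33 (27.3%, against 21.8% of all genes). Under median centring the calls of Hilpda and Acsl4 stayed and those of Ppargc1b (0.0528) and Cpt1a (0.159) were lost, so the split was 2 higher and 0 lower. The Acsl4 call was lost without CSH replicate 2 (0.0567). That of Cpt1a was lost with no filter (0.0798) or the 6 arrays alone (0.0844), and on leaving out any 1 KO array, CSH replicate 1 or 2, SCR replicate 3 or 4, or replicate 2 or 4 in normal medium (0.057 to 0.186). Abhd5 (0.25, adjusted p = 0.106; 0.0312 with quantile normalization and 0.0386 with array weights) and Fasn (-0.50, adjusted p = 0.16) did not pass.

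Other genes of the same pathways were counted from a list of 128, of which 115 had a probe set of their own and 95 were tested. In SCR medium 26 rose and 30 fell, 58.9% together, beside the 35.2% of all genes, with a median of -0.02. Among genes around fatty acid synthesis 1 of 12 rose and 6 fell: Acss1, the mitochondrial acetyl-CoA synthetase (-0.78), and the desaturase Fads1 (-0.69) fell, and Me1, which supplies NADPH, rose (1.27). In glycerolipid assembly 3 of 11 rose and 4 fell, with Gpat3, an enzyme of the first step, at 0.75, Gpd1l at -0.76 and Cds1 at -0.63. Of droplet and lipolysis genes 2 of 10 rose and 2 fell. Lipa, the lysosomal acid lipase gene, fell by 0.76 and Faf2 and Spg20 rose by 0.41 and 0.35. Beside the synthetases, 6 of 11 rose and 2 fell, with Acsbg1 at 0.87, the thioesterase Acot7 at -0.50 and the acyl-CoA binding protein gene Dbi at -0.50.

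Of the 27 oxidation genes outside the main set, 7 rose, 7 fell and 13 did not pass. Acat1, which splits acetoacetyl-CoA, fell by 0.94, and the peroxisomal genes Acox3, an acyl-CoA oxidase, and Abcd2, a fatty acyl-CoA transporter, by 1.41 and 1.14. Of regulators 5 of 17 rose and 5 fell, with Mlx at 0.98, Rxrb at -0.38 and Tfeb at -0.31. Of 7 further genes known to respond to PPAR, 2 rose and 4 fell: Cd36, a fatty acid receptor, rose by 1.06, and Fabp4 and the lipoprotein lipase gene Lpl fell by 2.37 and 1.76. All genes named here from this list passed in SCR medium, at adjusted p of 0.00325 or less.

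Between KO and SCR medium 2 of these 95 genes were called, both higher: Cd36 by 0.58 (limma adjusted p = 0.0323) and Acsbg1 by 0.45 (adjusted p = 0.0268), which is 2.11%, where 0.254% of all genes were called higher. Both calls depended on the arrays and settings. That of Acsbg1 was lost without any 1 SCR array or KO replicate 1 or 3 (adjusted p from 0.0725 to 0.139), with no filter (0.0539), median centring (0.056) or its 6 arrays alone (0.084). That of Cd36 was lost in the same settings (0.0666, 0.056 and 0.0873) and with the replicate number as a block (0.149). The Cd36 call was also lost without normal replicate 3, any 1 SCR or CSH array, or KO replicate 1 or 3 (0.0501 to 0.178). For CSH against SCR medium none of the 95 was called. Between KO and CSH medium 9 of the 95 were called (9.47%, where 1.9% of all genes were). By direction, 3.16% were higher and 6.32% lower, against 1.21% and 0.695% of all genes. The 3 higher were Cd36 (0.89), Acsbg1 (0.69) and Gpat3 (0.39). The 6 lower were Lipa (-0.51), the regulator Cebpa (-0.53), Gpd1l (-0.40), Fads1 (-0.36) and the thiolases Acaa1a (-0.56) and Acaa1b (-0.51). The last pair are close copies, so their probes may read both. The higher calls of Cd36 and Acsbg1 held in every setting, and that of Gpat3 in all but the mean of its probe sets (0.21, adjusted p = 0.123). All 6 lower calls were lost without CSH replicate 2 (adjusted p from 0.0608 to 0.178). Leaving out single KO arrays also ended them: any of the 3 for Cebpa, Fads1 and Acaa1b, replicate 1 or 3 for Lipa, 2 or 3 for Acaa1a and 2 for Gpd1l (0.0524 to 0.126). Without CSH replicate 1 Fads1 was lost (0.101), without CSH replicate 4 Acaa1b (0.0628), and without normal or SCR replicate 4 Fads1 again (0.0585 and 0.0651). Median centring ended the calls of Lipa, Cebpa, Gpd1l and Fads1 (0.0552 to 0.146). With its 6 arrays alone the comparison lost Lipa and Cebpa (limma adjusted p = 0.0744 each) and Fads1 (0.1). No filter ended the Fads1 call (0.0736) and quantile normalization that of Lipa (0.0674). The replicate number as a block ended those of Acaa1a (0.0542) and Acaa1b (0.0564).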

How the data were processed

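RNA from 12 samples of RAW264.7 cells was measured on Affymetrix arrays, 1 array per sample. The deposited values are log2 signals that the authors made with RMA in Expression Console from Affymetrix (build mm10), per the submitters' processing notes. Versions, probe filters and batch steps: not given in the sources used here. RMA gives the probe signals of every array one distribution, so a shift in all RNA at once would largely not show. The probe set values still differed somewhat between arrays, with medians from 5.40 to 5.52. Changes of dim genes come out smaller. The number of arrays limits the precision.

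Genes were named from the platform table, updated through the RefSeq table of GRCm38.p6. Of 65528 probe sets, 31018 had 1 gene, 1478 several and 33032 none listed. Genes above the median of all probe sets in at least 3 arrays were tested. The fit was limma 3.58.1 in R 4.3.3 with group as the only term and a trend of the spread with intensity; 8 degrees of freedom remained, and the median residual SD was 0.0964. The fit was also run on simulated data, made from the gene means and spreads of these arrays with independent noise. For KO against SCR medium it recovered 85 of 100 genes changed by 0.58 and 99 of 100 changed by 1. It made 12 false calls. In the simulation 200 genes were changed at once, where 49 were called in the data. No change below 0.58 was planted, and the largest KO minus SCR difference of a lipid gene was 0.43. Recovery at the sizes seen in these genes was thus not measured.

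The members and lists were chosen with earlier results of these data known. Per-array values were given for up to 3 members per role with the smallest p and for those called between conditioned media, with some departures. Pnpla2 and Acadm were added outside this rule, and Hadh, whose smallest p was below that of Acadm, and Acaca were given as changes only. Of the other pathway genes, up to 3 per role with the smallest p, plus those called between conditioned media, were named. Further members were named because the text accounts for all. Alternatives were no filter and a stricter one, quantile normalization, median centring, array weights, no intensity trend, the mean of a gene's probe sets, the replicate number as a block, the 6 arrays of a comparison alone, each array left out, and a fold of at least 1.5 added. Plots were made in Python 3.11.15 (matplotlib 3.10.9).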

Additional observations from a re-analysis of the deposited data

How the results depend on the processing

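Counts of lipid genes called moved by more than 1.5 times in few settings. With a fold of at least 1.5 added, 11 were called in SCR, 11 in KO and 9 in CSH medium against normal medium (23, 22 and 22 without it), and 0 between KO and CSH medium (4 without it). The share of all genes called at this fold was not computed, so these counts have nothing to be read beside. Array weights gave 3 between KO and SCR medium, where the fit with equal weights gave 0, and median centring gave 2 between KO and CSH medium. Leaving out single arrays gave 20 to 23 genes in SCR, 21 to 23 in KO and 18 to 23 in CSH medium against normal medium, 0 to 1 between KO and SCR medium and 2 to 4 between KO and CSH medium. Over all 18119 genes these refits called 5398 to 6359 in SCR, 6148 to 7390 in KO and 5411 to 6800 in CSH medium. The equal-weight fit to all arrays called 6369, 7079 and 6493 there. In all other settings the counts of lipid genes stayed within 1.5 times. Of 71 calls of single genes in these comparisons, 59 held in every refit and none reversed. Over all genes, KO against SCR medium gave 49 calls, 376 with array weights, 22 from its 6 arrays alone and 20 to 50 with 1 array left out; CSH against SCR medium gave 0, 79 with array weights and 1 under a stricter filter; and KO against CSH medium gave 345, with 654 under array weights, 574 with quantile normalization, 154 with median centring, 162 from its 6 arrays alone and 210 with no filter. Leaving out 1 array gave 107 to 373 there, the lowest being 107 without CSH replicate 2 and 124 without KO replicate 1. The causes were not tested.

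Replicate numbers were not taken to pair the samples, since the labels do not tie a number to a shared source. Of 12 pairs of arrays with the same number in different groups, 5 had deviations from their group means that correlated above 0.1 (all 12 from -0.0653 to 0.295, median 0.069), against 8 of 42 pairs with different numbers (median -0.0461). All 3 pairs of replicate 1 were above 0.1 and none of those of replicates 3 and 4. With the replicate block, 23, 24 and 22 lipid genes were called in SCR, KO and CSH medium against normal medium, 0 for KO and 0 for CSH against SCR medium, and 4 between KO and CSH medium; it added Acaca (adjusted p = 0.00788) and Lipe (0.0392) in KO medium and Ech1 (0.0301) in CSH medium against normal medium, and ended the Agpat2 call in CSH medium (adjusted p = 0.0995), that of Cd36 between KO and SCR medium (0.149) and those of Acaa1a and Acaa1b between KO and CSH medium (0.0542 and 0.0564). Not every array correlated best with one of its own number. The block lowered the count over all genes between KO and CSH medium from 345 to 214. Against normal medium it gave 5859 in SCR, 6777 in KO and 6243 in CSH medium over all genes, where the fit without it gave 6369, 7079 and 6493. The 3 arrays a group limit the precision.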
